A study of Drosophila melanogaster with 18 samples.

Results

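The ovaries and testes of adult w1118 flies were compared gene by gene. The 4 gonad libraries, 2 of ovaries and 2 of testes, were picked out by the names of their columns in the count table and are 4 of the 18 libraries of the series. All flies came from an untreated isogenic w1118 stock and were 24 h old as adults. The gonads were dissected whole in cold buffer, so each library mixes germline cells of every stage with the somatic cells around them. The fit also held 2 libraries each of female bodies, male bodies, female heads and male heads of the same strain and age, where a body is the abdomen with the thorax, and 12 libraries in all shared 1 estimate of the spread between replicates. Nothing in the labels says that the replicates came from separate cultures or animals, so p-values measure only the spread between these libraries, which may be technical. In whole organs, fewer cells of a type and less RNA per cell cannot be told apart.

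The fly ovary is made up of chains of egg chambers. In each chamber, germline nurse cells load the oocyte with mRNA, ribosomes and patterning determinants, while the somatic follicle cells around them secrete yolk proteins, the vitelline membrane and the chorion. The testis is a blind tube in which germline stem cells at the tip give rise to spermatocytes. Spermatocytes switch on a large set of testis genes before meiosis, and the spermatids then swap histones for protamine-like proteins, fuse their mitochondria into a derivative along the tail and build a long motile axoneme. Many testis genes are copies of genes used elsewhere in the body, and a few of them lie on the Y chromosome.

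The ovary libraries held 53740834 and 67429362 counts and the testis libraries 41107294 and 49265037, within the range of 37198249 to 67429362 of the 12 adult libraries. The defining markers fitted the labels, with Vm26Aa, Yp1 and osk high in ovaries and bol, betaTub85D and Mst87F high in testes (values below). The testis libraries also held RNA of the male tract. All 11 accessory gland and seminal fluid genes and all 5 ejaculatory duct and bulb genes tested were called higher in testes, and their summed levels were 154 and 22.6 (gland) and 112 and 20.5 (duct and bulb) CPM (counts scaled to a common library size with edgeR's TMM factors) in ovaries, against 13472 and 9936 (gland) and 8104 and 5858 (duct and bulb) CPM in testes. These genes made up 1.52% and 1.25% (gland) and 0.916% and 0.737% (duct and bulb) of the testis counts, and a testis gene with no such marker beside it cannot be told apart from a gene of these tissues here. Of the other marker lists, muscle genes summed to 2784 and 1791 CPM in ovaries, against 2482 and 3266 CPM in testes, midgut genes to 15.7 and 7.72 CPM in ovaries, against 89.2 and 55.0 CPM in testes, fat body genes to 132 and 95 CPM in ovaries, against 113 and 88 CPM in testes, hemocyte genes to 139 and 140 CPM in ovaries, against 37.8 and 57.5 CPM in testes, neuron genes to 280 and 310 CPM in ovaries, against 274 and 328 CPM in testes, and 3 genes of the female tract to 14.8 and 0.847 CPM in ovaries, against 0.861 and 0.533 CPM in testes. The 2 replicates of a gonad differed with gene length. The log2 ratio of replicate 2 over replicate 1 went with log2 exon length (Pearson r across genes 0.51 in ovaries over 7272 genes and 0.61 in testes over 9311 genes), and genes with up to 800 exonic bases had a median ratio of -1.0 in ovaries and -0.60 in testes. The part of this difference in the results was not tested.

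Ovary replicate 1 held a low and even level of testis genes, and so did female body replicate 1. Among 702 genes called higher in testes by a log2 fold change of at least 5 and with at least 100 CPM there, the level in ovary replicate 1 was a median of 1.22% of that in testis replicate 1 (10th to 90th percentile 1.01% to 1.59%), whereas ovary replicate 2 held a median of 0.238% of the level in testis replicate 2 (0.150% to 0.427%). The genes were picked by their fold change between these gonad libraries, so high percentages in ovaries were excluded in advance. The same genes stood at a median of 1.28% of male body replicate 1 in female body replicate 1 and 0.168% of male body replicate 2 in female body replicate 2. In heads, too, replicate 1 was the higher. The same genes stood at a median of 0.595% of male body replicate 1 in female head replicate 1. In female head replicate 2 they stood at 0.209% of male body replicate 2. Accessory gland genes, which are no testis genes, had medians of 1.12% and 0.230% in ovary replicates 1 and 2. They summed to 29.5 and 6.18 CPM in female heads, and to 23.7 and 5.45 CPM in male heads. In testes, 18 vitelline membrane and chorion genes stood at medians of 0.224% and 0.0867% of their ovary levels. The 107 ovary-higher genes picked by the same rule as the 702 stood at medians of 0.772% and 0.673% in testis replicates 1 and 2. Their 10th to 90th percentiles were wider, at 0.184% to 3.05% and 0.0696% to 2.52%. The origin of these counts was not tested. They bear on every fold change of a strong testis gene, since 672 of 979 testis-higher genes with at least 100 CPM (68.6%) had a log2 fold change between -8 and -6, and the median log2 fold change of all genes called higher in testes was -6.12 in the fit of 12 libraries and -7.33 without ovary replicate 1. The medians of the sperm lists and the fold changes of many of these genes are given below with the value without ovary replicate 1.

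**Figure D1:**
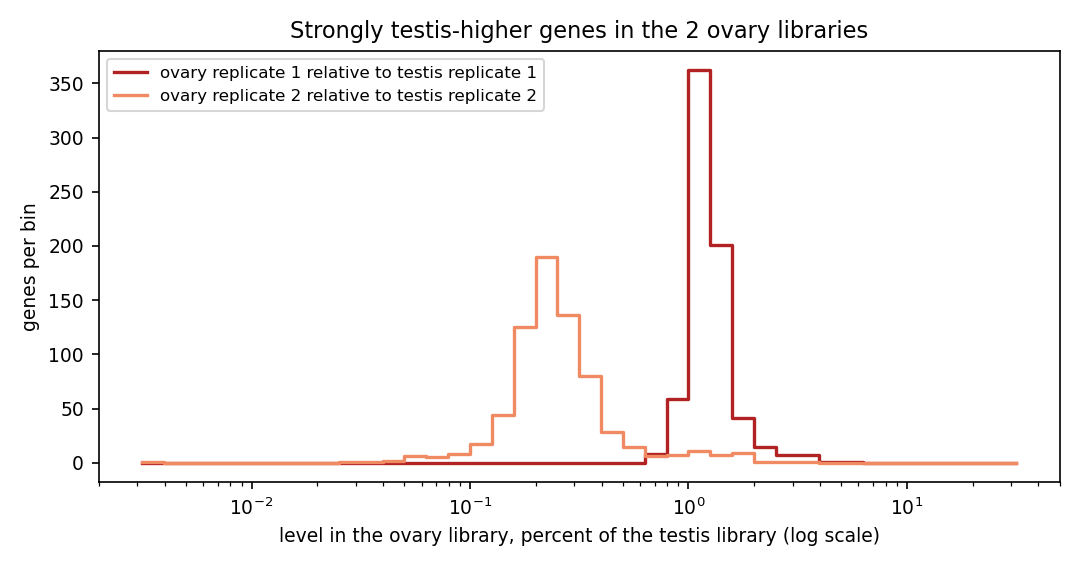
Level of 702 strongly testis-higher genes in ovary replicates 1 and 2 as a percent of their level in the testis library of the same number (log scale, bins of 0.1 in log10). The genes pile up near the median of 1.22% in ovary replicate 1 and spread around a lower median of 0.238% in ovary replicate 2.

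Of the 17825 genes in the table, 12597 passed the filter on low counts and were tested. With a Benjamini-Hochberg adjusted p under 0.05 in edgeR's quasi-likelihood test and a minimum log2 fold change of 1, 4527 genes (35.9%) were called higher in ovaries, 4739 (37.6%) were called higher in testes and 3331 (26.4%) were not called, so that 73.6% were called in either direction. Genes higher in ovaries took 81.2% and 79.7% of the counts in ovaries, against 16.3% and 20.3% in testes, and genes higher in testes took 2.74% and 2.71% in ovaries, against 64.1% and 57.5% in testes. The 2 directions differed in size. The median log2 fold change was 2.35 for genes higher in ovaries and -6.12 for genes higher in testes, and 30.0% of the ovary calls but 78.1% of the testis calls reached 3 either way. Fewer genes were detected in ovaries, with at least 10 counts in both libraries for 9070 genes in ovaries and 11449 genes in testes. Only 62 genes reached that level in ovaries with at most 3 counts in each testis library, against 958 genes in testes with at most 3 counts in each ovary library.

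The balance of the 2 directions rested on the scaling. When DESeq2's size factors replaced those of TMM, the median log2 fold change over all genes moved by -0.95, and 2765 genes were called higher in ovaries against 5832 higher in testes, so that ovary calls were 32.2% of all calls in place of 48.9%. Upper-quartile scaling moved the median by -0.59 and gave 3395 and 5348 calls (38.8%). Without ovary replicate 2 the median moved by -0.76 and 2797 and 5365 genes were called (34.3%). Each gene named in the text as called higher in ovaries with a log2 fold change under 2 lost its call under DESeq2's factors. The 19 eggshell genes, 7 sperm chromatin genes, 11 cup and comet genes and 12 testis proteasome genes described below were all called in the same direction with both of these scalings and without ovary replicate 2.

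**Figure D2:**
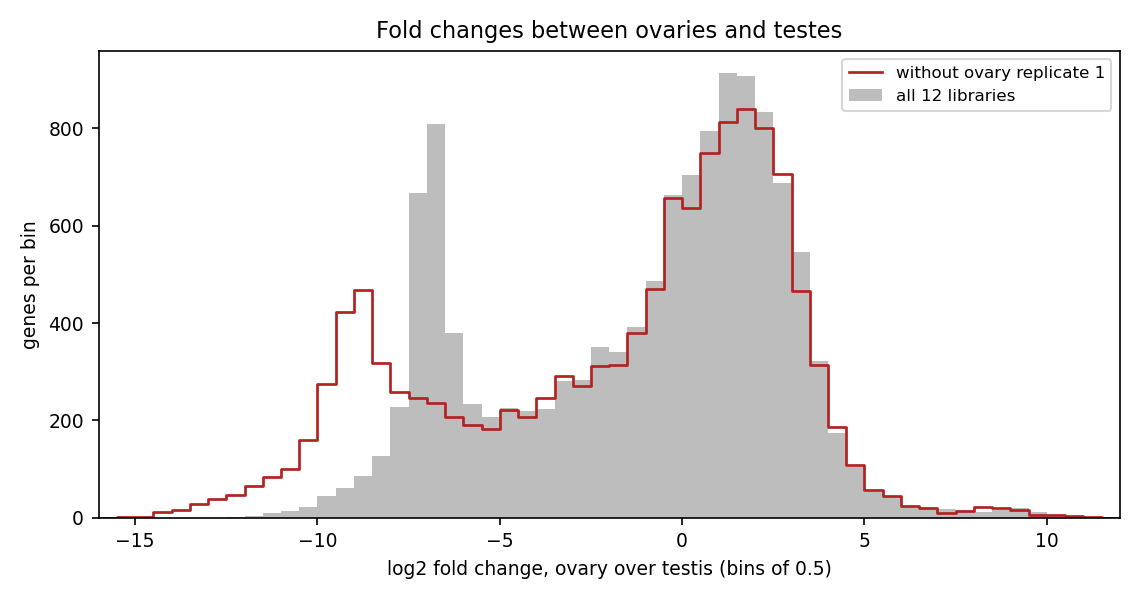
Number of genes per bin of 0.5 in log2 fold change, ovary over testis, in the fit of 12 libraries (grey bars) and without ovary replicate 1 (red line). Ovary-higher genes form a broad shoulder to the right with a median of 2.35, while testis-higher genes pile up between -8 and -6 and move to lower values without that library.

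The largest changes toward ovaries were eggshell genes and maternal germline genes. Among called genes with at least 100 CPM in ovaries, the 12 with the largest fold were Vm26Ab, psd, Vm26Aa, Vm34Ca, Vml, yellow-g2, pgc, CG13114, Cp16, alphaTub67C, CG4009 and yellow-g, with log2 fold changes of 9.46 to 10.29. Vm26Ab, a structural protein of the vitelline membrane on chromosome arm 2L (FBgn0003980, 5957004 to 5957639, plus strand, dm6), had 4303 and 4906 CPM in ovaries, against 4.22 and 3.12 CPM in testes, a log2 fold change of 10.29 ± 0.61 (SE, 2 libraries a group) with an adjusted p of 6.74e-06 in edgeR. The ovary libraries lay about 3 orders of magnitude above the testis libraries. The highest ovary levels among genes with a log2 fold change of at least 3 belonged to the translation elongation factors eEF1alpha1 and eEF2, the vitelline membrane genes Vm26Aa, Vm34Ca and Vm26Ab, the yolk protein gene Yp2, the ribonucleoprotein component tral, the ribosomal protein genes sta and RpL13A, and the chorion gene dec. eEF1alpha1 was the most abundant gene of both ovary libraries, at 21161 and 20597 CPM in ovaries, against 1313 and 2706 CPM in testes (log2 fold change 3.38 ± 0.50).

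All 19 vitelline membrane and chorion genes tested were called higher in ovaries, with a median log2 fold change of 9.36, where 35.9% of all genes tested were. They took 3.32% and 3.01% of ovary counts, against 0.0104% and 0.00731% of testis counts. Vm26Aa stood at 12160 and 8382 CPM in ovaries, against 15.1 and 5.23 CPM in testes. The chorion genes Cp15, Cp16, Cp18 and Cp19, which are amplified in follicle cells late in oogenesis, had 378 to 1889 CPM in ovaries, against 0.242 to 4.73 CPM in testes. The smallest changes of the list were in fs(1)N, a vitelline membrane component with 262 and 260 CPM in ovaries, against 22.3 and 28.0 CPM in testes (log2 fold change 3.38), and in clos, with 143 and 142 CPM in ovaries, against 6.46 and 3.63 CPM in testes (4.82). Another 6 members lie wholly under other genes and have no counts in this table.

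Yolk genes were higher in ovaries in 8 of 8 cases, beside 35.9% of all genes tested. The follicle cells make yolk proteins alongside the fat body, and yl encodes the receptor by which the oocyte takes them up. Yp1 had 3067 and 2834 CPM in ovaries, against 11.5 and 3.45 CPM in testes, and yl had 2122 and 1727 CPM in ovaries, against 4.86 and 2.50 CPM in testes (log2 fold change 9.03 ± 0.70, adjusted p 1.32e-05 in edgeR). Yp2 reached 7703 and 6685 CPM in ovaries, against 20.2 and 6.83 CPM in testes. The general endocytic genes Rab5 and Rab11 moved far less, with log2 fold changes of 2.0 and 1.81, and Rab11 lost its call with DESeq2's factors (0.83). jagn, an endoplasmic reticulum protein needed in the oocyte (2.07), lost its call with DESeq2's factors (1.08), with the 4 gonad libraries alone (1.73) and without ovary replicate 1 (1.38), testis replicate 1 (1.90) or testis replicate 2 (2.05).

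Of 27 germ plasm and axis genes tested, 23 (85.2%) were higher in ovaries, 2 (7.41%) were higher in testes and 2 were not called (median 3.48). Over all genes tested the shares were 35.9% and 37.6%. osk, which nucleates germ plasm at the posterior pole (3R, 8935126 to 8938395, plus strand, mostly under other genes and counted only over the rest), had 321 and 374 CPM in ovaries, against 0.667 and 0.339 CPM in testes, a log2 fold change of 9.44 ± 0.56. pgc, which silences transcription in early germ cells, had 220 and 124 CPM in ovaries, against 0.344 and 0.0807 CPM in testes, and gcl, required to form those cells, had 155 and 315 CPM in ovaries, against 2.67 and 4.86 CPM in testes. bcd, the anterior determinant, had 89.8 and 187 CPM in ovaries, against 0.775 and 0.371 CPM in testes, and swa, needed to localize bcd mRNA, had 397 and 461 CPM in ovaries, against 2.32 and 1.63 CPM in testes. Each of these 5 genes was separated between the gonads by more than an order of magnitude, with no overlap of libraries. The maternal genes of the terminal and dorsoventral systems followed, from the receptors tor (5.73) and Tl (4.83) and the proteases snk (6.13), ea (5.08) and gd (4.48) to the ligand spz (3.48) and the transcription factor dl (2.86), all as log2 fold changes. Without ovary replicate 2 these were 4.05 for tor, 3.10 for Tl, 5.53 for snk, 4.10 for ea, 3.53 for gd, 2.0 for spz and 1.45 for dl, where the median of all genes moved by -0.76.

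The exceptions in this list were exu, wbl, bru1 and orb. exu, known in the ovary for moving bcd mRNA to the anterior, was among the 10 most abundant strongly testis-higher genes, with 468 and 450 CPM in ovaries, against 4498 and 3744 CPM in testes (2R, 20667427 to 20671083, log2 fold change -3.17 ± 0.72, adjusted p 0.00324 in edgeR). The gene was thus well expressed in both gonads and higher in testes in both libraries. wbl, an endoplasmic reticulum protein of the dorsoventral pathway, had 33.0 and 10.3 CPM in ovaries, against 73.7 and 60.2 CPM in testes (-1.63, and -2.70 without ovary replicate 1), a call lost without testis replicate 1 (-1.47). The translational regulator bru1 had 1293 and 1523 CPM in ovaries, against 1687 and 1449 CPM in testes, and orb, which regulates oocyte mRNAs through their tails, had 746 and 997 CPM in ovaries, against 1332 and 1006 CPM in testes. For both the libraries overlapped or nearly touched, with log2 fold changes of -0.16 and -0.42, and both were called higher in testes with DESeq2's factors (-1.13 and -1.40).

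Egg activation and maternal mRNA control gave 18 of 20 genes higher in ovaries (90%, median 4.40), beside 35.9% of all genes tested. The kinase complex that starts translation in the egg was represented by png, plu and gnu. gnu had 411 and 291 CPM in ovaries, against 1.01 and 0.258 CPM in testes (log2 fold change 9.13), png had a log2 fold change of 6.19 and plu of 4.37. wisp, the poly(A) polymerase of late oogenesis, had 914 and 1870 CPM in ovaries, against 9.02 and 4.76 CPM in testes, and fs(1)Ya, a nuclear envelope protein needed for the first embryonic divisions, had 182 and 326 CPM in ovaries, against 1.10 and 0.952 CPM in testes. The repressors of maternal mRNA were abundant and less restricted. me31B had 3723 and 2389 CPM in ovaries, against 174 and 136 CPM in testes, and tral had 6808 and 5316 CPM in ovaries, against 519 and 421 CPM in testes. endos, which controls meiotic maturation, was at 545 and 471 CPM in ovaries, against 592 and 582 CPM in testes (log2 fold change -0.21), and the calcineurin regulator sra was at 72.0 and 85.5 CPM in ovaries, against 161 and 147 CPM in testes (-0.97), so the sra libraries did not overlap, but the change stayed under the minimum fold. Both were called higher in testes with DESeq2's factors (-1.19 and -1.94), with at least 10 counts in each gonad library (-1.40 and -2.15) and without ovary replicate 2 (-1.02 and -2.01). polo, the mitotic kinase, was called (1.43), but not with DESeq2's factors (0.45), with the 4 gonad libraries alone (1.08) or without ovary replicate 2 (0.43), testis replicate 1 (1.41) or testis replicate 2 (1.29).

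Meiotic recombination genes split. Of 22 tested, 14 (63.6%) were higher in ovaries, 3 (13.6%) were higher in testes and 5 were not called (median 2.69). Over all genes tested the shares were 35.9% and 37.6%. Males of this species undergo meiosis without crossing over. c(3)G, the transverse filament of the synaptonemal complex, had 181 and 129 CPM in ovaries, against 7.04 and 8.10 CPM in testes (log2 fold change 4.35 ± 0.37), and c(2)M, of its lateral element, had 31.3 and 24.8 CPM in ovaries, against 1.79 and 1.10 CPM in testes. The recombination genes mei-9 (3.63), rec (3.61), okr (2.89) and spn-B (3.76) were also higher in ovaries, as was nod, a chromokinesin that holds chromosomes without crossovers on the female spindle, with 35.7 and 79.4 CPM in ovaries, against 0.839 and 0.759 CPM in testes. Against the rest, the central region proteins cona and corolla and the cohesion protein ord were higher in testes. cona had 6.07 and 2.27 CPM in ovaries, against 109 and 82.4 CPM in testes (log2 fold change -4.52 ± 0.61, and -5.39 without ovary replicate 1). corolla had 13.3 and 9.88 CPM in ovaries, against 188 and 141 CPM in testes (-3.83, a call lost without testis replicate 1 at -3.61), and ord had 2.70 and 1.29 CPM in ovaries, against 65.1 and 48.3 CPM in testes. Within 1 complex, c(3)G and cona therefore lay on opposite sides in all 4 libraries.

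Genes of female germline identity gave 10 of 14 higher in ovaries (71.4%), 1 higher in testes (7.14%) and 3 not called. Over all genes tested the shares were 35.9% and 37.6%. otu and ovo, both needed for the female germline to develop, were the most restricted. otu had 757 and 1046 CPM in ovaries, against 6.26 and 5.13 CPM in testes (log2 fold change 7.31 ± 0.36), and ovo, counted over the part of its span outside other genes, had 619 and 697 CPM in ovaries, against 1.81 and 2.47 CPM in testes. Sxl, the splicing switch of female identity, had 258 and 458 CPM in ovaries, against 29.5 and 34.9 CPM in testes (3.48, and 2.09 without ovary replicate 2). The differentiation factor bam and its partner bgcn went opposite ways. bam had 16.5 and 26.4 CPM in ovaries, against 3.14 and 3.13 CPM in testes (2.77), and bgcn had 2.26 and 1.49 CPM in ovaries, against 60.2 and 87.9 CPM in testes (-5.30 ± 0.42, and -5.63 without ovary replicate 1). The partner of both, tut, was called (1.29), but not with DESeq2's factors (0.31) or without ovary replicate 2 (0.54) or testis replicate 2 (0.90), and stil, stwl and mei-P26 were not called.

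The piRNA pathway, which silences transposons in the germline, had 24 of 28 genes (85.7%) higher in ovaries, 1 (3.57%) higher in testes and 3 not called (median 2.57). Over all genes tested the shares were 35.9% and 37.6%. piwi, the nuclear Argonaute, had 344 and 318 CPM in ovaries, against 5.36 and 4.54 CPM in testes (log2 fold change 6.06 ± 0.38, adjusted p 7.04e-06 in edgeR). The cytoplasmic Argonautes were closer, with aub at 172 and 177 CPM in ovaries, against 14.2 and 18.1 CPM in testes (3.43), and AGO3 at 209 and 182 CPM in ovaries, against 38.8 and 30.9 CPM in testes (2.49). The export adaptor nxf2 (4.18), the nuclease zuc (4.21), the cochaperone shu (4.29) and the tudor protein tej (3.88) had larger changes than tud (1.5), tapas (1.59) and krimp (1.85), further tudor proteins. These lost their calls with DESeq2's factors, as did mael, Panx and cuff. papi, a mitochondrial tudor protein that takes part in trimming piRNAs, had 94.5 and 85.9 CPM in ovaries, against 282 and 216 CPM in testes (-1.46). With DESeq2's factors 18 members were called higher in ovaries and 2 higher in testes, beside 2765 and 5832 of all 12597 genes tested. The second of these 2 was Hen1, the methylase of piRNA ends, at 16.3 and 13.4 CPM in ovaries, against 32.5 and 20.7 CPM in testes.

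**Figure D3:**
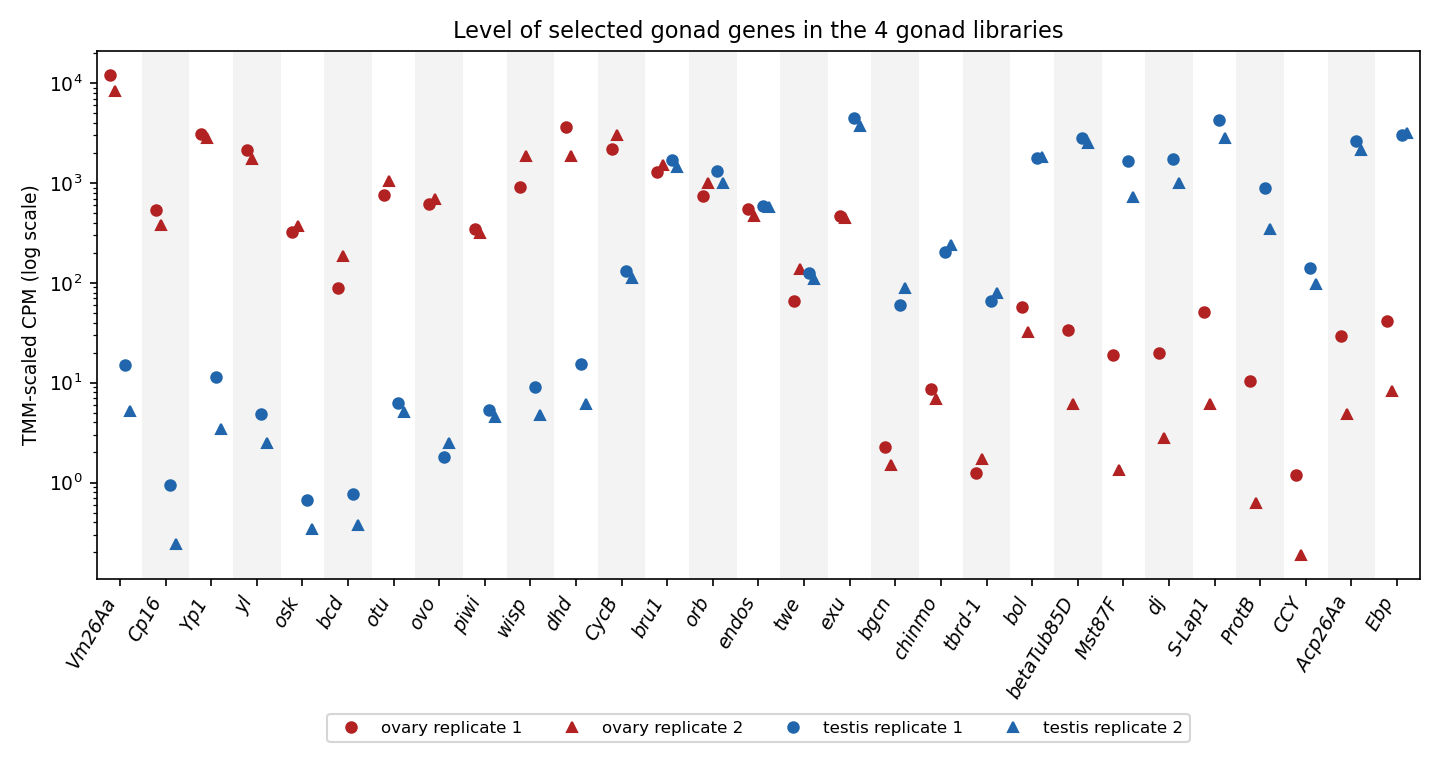
TMM-scaled CPM (log scale) of 29 genes in ovary replicates 1 and 2 (red) and testis replicates 1 and 2 (blue), from eggshell and maternal genes on the left to sperm and male tract genes on the right. bru1, orb, endos and twe overlap or lie close between the gonads, and most strong testis genes are higher in ovary replicate 1 than in ovary replicate 2.

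Turning to the testis, the largest changes were mostly in genes named only by a CG number. The testis libraries also held RNA of the male tract, as given above. Whether a gene named in this paragraph comes from the testis or from the tract was not tested. Among called genes with at least 100 CPM in testes, 12 had log2 fold changes of -8.26 to -7.62 (-11.20 to -8.27 without ovary replicate 1). They were Met75Ca, CG6614, CG8236, CG15635, CG15824, CG11251, BG642163, CG12609, CG32061, CG15452, CG10588 and 1 gene without a symbol in the reference tables. Met75Ca had 1.21 and 0.157 CPM in ovaries, against 142 and 268 CPM in testes, a log2 fold change of -8.26 ± 1.25, and -10.33 without ovary replicate 1. CG15635 had 3.36 and 1.93 CPM in ovaries, against 273 and 998 CPM in testes, and lies next to BG642163, at 9.23 and 4.68 CPM in ovaries, against 858 and 2028 CPM in testes, on 2L. The most abundant strongly testis-higher genes were CG17097, CG4836, CG31872, CG14995, exu, loopin-1, CG3124, S-Lap1, salto and Syp. CG17097 had 59.7 and 21.2 CPM in ovaries, against 5233 and 10044 CPM in testes (-7.56 ± 1.19, and -8.49 without ovary replicate 1), and CG4836 had 82.9 and 13.6 CPM in ovaries, against 7231 and 5936 CPM in testes. Syp, an RNA-binding protein, was the only one of the 10 besides exu and CG14995 with over 50 CPM in both ovary libraries, at 100 and 58.4 CPM, against 3179 and 3416 CPM in testes.

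The transcriptional program of spermatocytes was testis-higher in 10 of 13 genes and ovary-higher in none, with 3 not called (median -5.59), where 37.6% of all genes tested were called higher in testes. These genes encode the testis forms of the meiotic arrest complex and of the TAFs of TFIID, on which later sperm genes depend. Their levels were modest. aly had 2.26 and 2.49 CPM in ovaries, against 21.0 and 24.3 CPM in testes (log2 fold change -3.25 ± 0.61), and topi had 3.8 and 2.53 CPM in ovaries, against 34.8 and 42.4 CPM in testes. The bromodomain gene tbrd-1 had 1.25 and 1.73 CPM in ovaries, against 65.1 and 78.5 CPM in testes, and can, a TAF form, had 0.615 and 0.0314 CPM in ovaries, against 32.2 and 30.0 CPM in testes. kmg, which keeps somatic genes off in spermatocytes, had 0.264 and 0.173 CPM in ovaries, against 24.8 and 33.8 CPM in testes (-7.07, and -7.38 without ovary replicate 1). The 3 not called were mip40 (log2 fold change 0.06), which also belongs to the general form of the complex, achi (-0.85) and mia (-0.79), and the last 2 were called higher in testes with DESeq2's factors.

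Genes of the spermatocyte division were mixed, with 5 of 11 higher in ovaries (45.5%) and 4 higher in testes (36.4%), shares near the 35.9% and 37.6% of all genes tested. bol, a translational regulator required to enter the meiotic divisions (3L, 9097629 to 9134405, minus strand), had 57.2 and 32.2 CPM in ovaries, against 1767 and 1813 CPM in testes (log2 fold change -5.32 ± 0.36, and -5.79 without ovary replicate 1). Heads also held bol counts, at 761 and 951 CPM in female heads, against 881 and 1024 CPM in male heads. twe, the meiotic Cdc25 phosphatase whose translation depends on bol, had 66.5 and 136 CPM in ovaries, against 126 and 110 CPM in testes (-0.22), so the libraries overlapped, though it was called higher in testes with DESeq2's factors (-1.18). Its mitotic paralog stg had 479 and 1072 CPM in ovaries, against 3.51 and 6.49 CPM in testes (7.28, and 5.66 without ovary replicate 2). CycB, which is stored in the egg, had 2182 and 3015 CPM in ovaries, against 132 and 112 CPM in testes, and CycA had 1604 and 1521 CPM in ovaries, against 122 and 81.7 CPM in testes. betaTub85D, the testis beta-tubulin of spindle and axoneme, had 33.7 and 6.06 CPM in ovaries, against 2854 and 2541 CPM in testes (-7.08, and -8.79 without ovary replicate 1).

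All 7 sperm chromatin genes tested were called higher in testes (median -6.69, and -9.06 without ovary replicate 1), beside 37.6% of all genes tested. ProtB, a protamine-like protein, had 10.4 and 0.628 CPM in ovaries, against 894 and 348 CPM in testes, and ProtA had 4.66 and 0.502 CPM in ovaries, against 360 and 171 CPM in testes. The transition protein gene Tpl94D had 1.32 and 0.126 CPM in ovaries, against 79.3 and 44.7 CPM in testes. The testis replicates themselves differed by more than a factor of 2 for ProtB, and the SE of its log2 fold change of -6.82 was 1.93 (-9.94 without ovary replicate 1). Replicate 2 was the lower in both gonads for each of the genes given here. ms(3)K81, which protects paternal chromosome ends, was the lowest of the list at 0.527 and 0.0314 CPM in ovaries, against 16.4 and 11.1 CPM in testes.

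Of the 14 Mst and don juan genes of the sperm tail, 13 (92.9%) were higher in testes, beside 37.6% of all genes tested. The exception, Mst85C, was higher in ovaries. The median of the list was -6.81, and -9.15 without ovary replicate 1. Mst87F, whose mRNA waits for translation until the spermatids elongate, had 18.8 and 1.35 CPM in ovaries, against 1663 and 731 CPM in testes (3R, 13827151 to 13828008, minus strand, log2 fold change -6.89 ± 1.93, and -9.79 without ovary replicate 1). Mst98Ca had 25.6 and 4.22 CPM in ovaries, against 2222 and 1870 CPM in testes, ocn had 29.6 and 1.68 CPM in ovaries, against 2493 and 897 CPM in testes, and dj had 20.1 and 2.79 CPM in ovaries, against 1731 and 1012 CPM in testes. For each of these genes both testis libraries lay far above both ovary libraries. Mst85C, partly under another gene, had 32.8 and 53.6 CPM in ovaries, against 3.92 and 3.81 CPM in testes (3.48). Cup and comet genes, which are transcribed after meiosis, gave 11 of 11 higher in testes (median -6.86, and -8.62 without ovary replicate 1). soti had 7.34 and 1.13 CPM in ovaries, against 698 and 584 CPM in testes, and schuy had 8.35 and 1.82 CPM in ovaries, against 759 and 684 CPM in testes. m-cup and f-cup kept a clear ovary level, at 54.4 and 85.2 CPM (m-cup) and 40.2 and 38.2 CPM (f-cup) in ovaries, against 600 and 535 CPM (m-cup) and 576 and 426 CPM (f-cup) in testes, with log2 fold changes of -3.02 and -3.68.

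Axoneme and mitochondrial derivative genes were testis-higher in 14 of 15 cases (93.3%, beside 37.6% of all genes tested). Their median log2 fold change was -6.96, and -9.13 without ovary replicate 1. They took 0.0331% and 0.0138% of ovary counts, against 2.27% and 1.74% of testis counts. The leucyl aminopeptidase copies that fill the mitochondrial derivative led the list. loopin-1 had 53.7 and 6.17 CPM in ovaries, against 4739 and 2955 CPM in testes, S-Lap1 had 50.9 and 6.1 CPM in ovaries, against 4308 and 2803 CPM in testes (log2 fold change -6.96, and -9.17 without ovary replicate 1) and S-Lap3 had 37.7 and 4.38 CPM in ovaries, against 3061 and 2121 CPM in testes. Tektin-A and Tektin-C, filament proteins of axonemes, had log2 fold changes of -7.17 and -7.32 (-9.05 and -8.50 without ovary replicate 1). Pkd2, a cation channel of the sperm tail, had 1.08 and 0.314 CPM in ovaries, against 59.5 and 101 CPM in testes. nmd, a mitochondrial AAA protein, was the exception at 150 and 116 CPM in ovaries, against 36.3 and 34.5 CPM in testes (1.91, and 0.93 with DESeq2's factors, where it was not called).

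All 12 Y-linked genes of the list that were tested were called higher in testes (median -6.36, and -8.18 without ovary replicate 1), beside 37.6% of all genes tested. CCY was the highest, with 1.19 and 0.188 CPM in ovaries, against 142 and 98.4 CPM in testes (log2 fold change -7.48, and -9.30 without ovary replicate 1). The dynein heavy chain genes of the sperm tail kl-5, kl-3 and kl-2 had 70.8 and 75.2 CPM (kl-5), 32.3 and 56.5 CPM (kl-3) and 31.3 and 41.4 CPM (kl-2) in testes. In ovaries, from females without a Y chromosome, the 12 genes summed to 12.5 and 3.44 CPM, against 504 and 442 CPM in testes. kl-3 accounted for 3.93 and 1.90 CPM of the ovary sums. The testis proteasome copies gave 12 of 12 higher in testes (median -6.93, and -9.36 without ovary replicate 1). Prosalpha6T had 3.98 and 0.251 CPM in ovaries, against 243 and 169 CPM in testes, and Prosbeta4R2 had 2.59 and 0.204 CPM in ovaries, against 214 and 119 CPM in testes. The smallest change was in Rpt3R, a copy of a regulatory particle ATPase, with 8.18 and 5.95 CPM in ovaries, against 96.1 and 89.6 CPM in testes (-3.72).

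**Figure D4:**
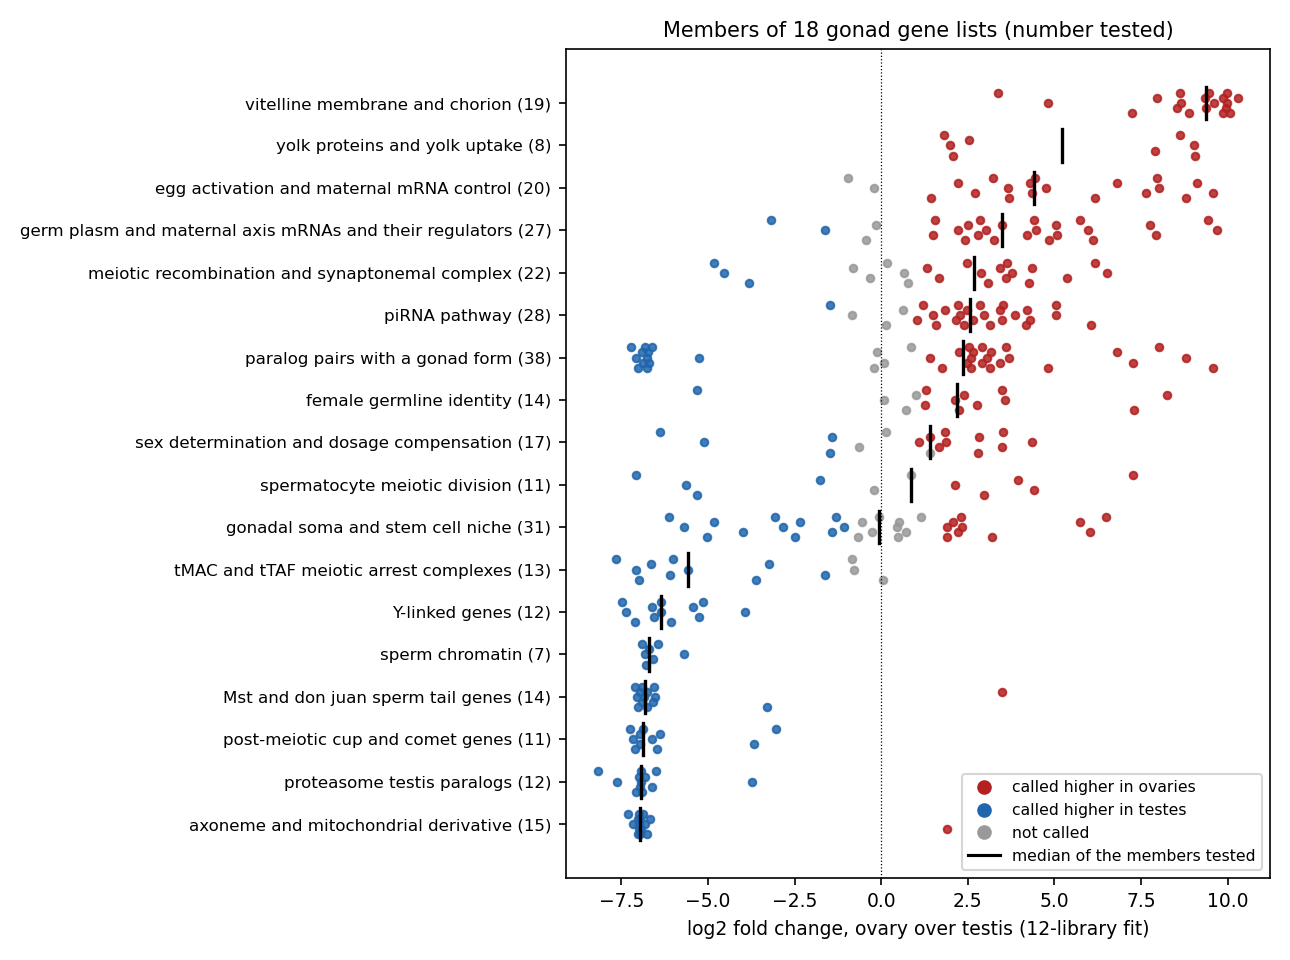
Log2 fold change, ovary over testis, of each tested member of 18 gonad gene lists, ordered by list median (black bar), with the number tested after each name. Red points were called higher in ovaries, blue points higher in testes and grey points were not called. Eggshell and yolk genes lie at the far right, the sperm lists pile up near -7 and the soma, meiosis and sex determination lists hold members on both sides.

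Over the 18 lists, 350 distinct genes were in the table, of which 45 lie wholly under other genes and have no counts, 2 fell under the filter and 303 were tested. Of these, 156 were called higher in ovaries, 113 higher in testes and 34 were not called. The shares over all genes tested were 35.9% for ovaries and 37.6% for testes. The lists were chosen for their known gonad roles, so these counts describe the lists and are no sample of the genome.

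In several paralog families 1 copy was higher in ovaries and another in testes. Among 38 members tested, 22 (57.9%) were higher in ovaries, 12 (31.6%) higher in testes and 4 were not called, beside 35.9% and 37.6% of all genes tested. For thioredoxins, dhd had 3648 and 1882 CPM in ovaries, against 15.3 and 6.18 CPM in testes (log2 fold change 8.01 ± 1.11), while TrxT had 19.4 and 2.78 CPM in ovaries, against 1582 and 1043 CPM in testes (-6.89, and -8.88 without ovary replicate 1). For tubulins, the maternal alphaTub67C had 616 and 409 CPM in ovaries, against 1.05 and 0.307 CPM in testes, and gammaTub37C had 130 and 128 CPM in ovaries, against 0.430 and 0.161 CPM in testes, while betaTub85D stood on the testis side. The general alphaTub84B had 1761 and 1924 CPM in ovaries, against 1718 and 2298 CPM in testes, and was not called (-0.12, but -1.09 and called higher in testes with DESeq2's factors). For cytochrome c, Cyt-c-p had 769 and 547 CPM in ovaries, against 107 and 104 CPM in testes (2.64), and Cyt-c-d had 4.95 and 0.377 CPM in ovaries, against 381 and 192 CPM in testes. For the cap-binding protein, eIF4E1 had 1884 and 1611 CPM in ovaries, against 510 and 514 CPM in testes (1.77, not called with DESeq2's factors), and eIF4E3, eIF4E4, eIF4E5 and eIF4E7 had 0.408 to 10.1 CPM in ovaries, against 118 to 752 CPM in testes. Ribosomal pairs took several forms. RpS5b, the germline form, had 1541 and 690 CPM in ovaries, against 47.8 and 30.7 CPM in testes (4.83), and RpS5a, on the same side, had 1222 and 620 CPM in ovaries, against 191 and 199 CPM in testes (2.24). RpL22 had 684 and 524 CPM in ovaries, against 37.9 and 54.9 CPM in testes, and RpL22-like had 2.07 and 0.580 CPM in ovaries, against 165 and 122 CPM in testes. Copies with near-identical sequence can share or lose reads in mapping, which was not examined.

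The gonadal soma and stem cell niche list had 10 of 31 genes higher in ovaries, 12 higher in testes and 9 not called (median -0.07), so its shares of 32.3% and 38.7% were close to the 35.9% and 37.6% of all genes tested. tj, a Maf factor of somatic gonad cells, had 254 and 233 CPM in ovaries, against 1.87 and 3.50 CPM in testes (2L, 19464267 to 19467758, plus strand, log2 fold change 6.50 ± 0.48). The border cell factor slbo had 6.44 and 3.64 CPM in ovaries, against 0.0861 and 0.0968 CPM in testes, and the follicle cell factor mirr had 34.7 and 23.9 CPM in ovaries, against 4.73 and 6.78 CPM in testes (2.35). The ecdysone receptor EcR had 71.5 and 166 CPM in ovaries, against 11.9 and 14.1 CPM in testes (3.19, and 1.55 without ovary replicate 2). On the other side, chinmo, which maintains male identity of somatic stem cells, had 8.66 and 6.84 CPM in ovaries, against 203 and 239 CPM in testes (-4.83 ± 0.25, adjusted p 5.34e-06 in edgeR). The niche ligand upd1 had 3.56 and 2.73 CPM in ovaries, against 24.7 and 27.6 CPM in testes (-3.06), hh had 1.10 and 0.392 CPM in ovaries, against 10.1 and 13.2 CPM in testes (-3.98, and -4.88 without ovary replicate 1) and dpp had 10.9 and 8.25 CPM in ovaries, against 39.0 and 58.2 CPM in testes (-2.34). en had 0.0879 and 0.0628 CPM in ovaries, against 4.63 and 6.09 CPM in testes. eya, Fas3, gbb and ptc, which somatic cells of both gonads use, were not called. Of these, Fas3 was at 67.0 and 53.9 CPM in ovaries, against 74.5 and 70.1 CPM in testes. With DESeq2's factors 8 genes of the list were higher in ovaries and 16 higher in testes, Fas3, gbb and ptc among the latter. Over all 12597 genes tested, these factors gave 2765 ovary calls and 5832 testis calls.

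Sex determination and dosage compensation genes had 10 of 17 higher in ovaries (58.8%), 4 higher in testes (23.5%) and 3 not called. Over all genes tested the shares were 35.9% and 37.6%. With DESeq2's factors 5 genes of the list were higher in each direction, beside 2765 (ovaries) and 5832 (testes) of all 12597 genes tested. lncRNA:roX1, an RNA of the male dosage compensation complex, had 4.04 and 1.69 CPM in ovaries, against 79.1 and 118 CPM in testes (log2 fold change -5.11 ± 0.67, and -5.86 without ovary replicate 1). In heads the same gene stood at 11.4 and 12.5 CPM in females, against 1810 and 2298 CPM in males. msl-1, a protein of that complex, went the other way, with 114 and 359 CPM in ovaries, against 7.25 and 15.9 CPM in testes (4.35 ± 0.74, and 2.38 without ovary replicate 2), and msl-2 was not called (-0.65, but called higher in testes with DESeq2's factors at -1.62, upper-quartile scaling at -1.27 and without ovary replicate 2 at -1.60), at 7.82 and 8.14 CPM in ovaries, against 10.5 and 14.6 CPM in testes. The sex-specific transcription factors dsx (-1.42) and fru (-1.47) were higher in testes, with 8.55 and 4.46 CPM (dsx) and 21.7 and 18.1 CPM (fru) in ovaries, against 14.6 and 20.2 CPM (dsx) and 53.0 and 57.1 CPM (fru) in testes. The cofactors ix (3.53) and her (2.80) and the splicing regulator fl(2)d (2.83) were higher in ovaries. tra (1.87), Phf7 (1.83), vir (1.68), msl-3 (1.42) and mle (1.08) were called higher in ovaries with TMM and not called with DESeq2's factors. These are total gene counts, and the male and female splice forms of Sxl, tra, dsx or fru were not resolved.

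Few genes could be held to a like level in both gonads. For 555 genes (4.41% of those tested) the 95% confidence interval of the log2 fold change lay within -1 to 1, and 183 of them averaged at least 100 CPM over the 4 libraries. The most abundant were eff, a ubiquitin-conjugating enzyme, with 2656 and 1956 CPM in ovaries, against 2132 and 1863 CPM in testes (interval -0.42 to 0.83), alphaTub84B (-0.94 to 0.69), bru1 (-0.75 to 0.44), the chaperones Droj2 (-0.18 to 0.79) and Calr (-0.39 to 0.95), and the RNA-binding protein Hrb98DE (-0.31 to 0.72). Likeness here depends on the scaling, since DESeq2's factors moved these genes with all others by about -0.95.

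Position in the genome went with the calls. On the X, 910 of 1887 genes tested (48.2%) were called higher in ovaries and 497 (26.3%) higher in testes. On 2L the order was turned, with 776 of 2471 (31.4%) higher in ovaries and 1096 (44.4%) higher in testes, and 2R, 3L and 3R lay between, with 34.2% to 34.7% higher in ovaries and 36.1% to 40.1% higher in testes. The small chromosome 4 resembled the X, with 46 of 94 genes higher in ovaries and 21 higher in testes, and on the Y 0 of 40 genes were higher in ovaries and 38 higher in testes. Put the other way, the X held 20.1% of ovary-higher genes (95% Clopper-Pearson interval 18.9% to 21.3%) and 10.5% of testis-higher genes (9.63% to 11.4%), beside 15% of all genes tested, where the intervals cover counting error only and genes are no independent replicates.

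**Figure D5:**
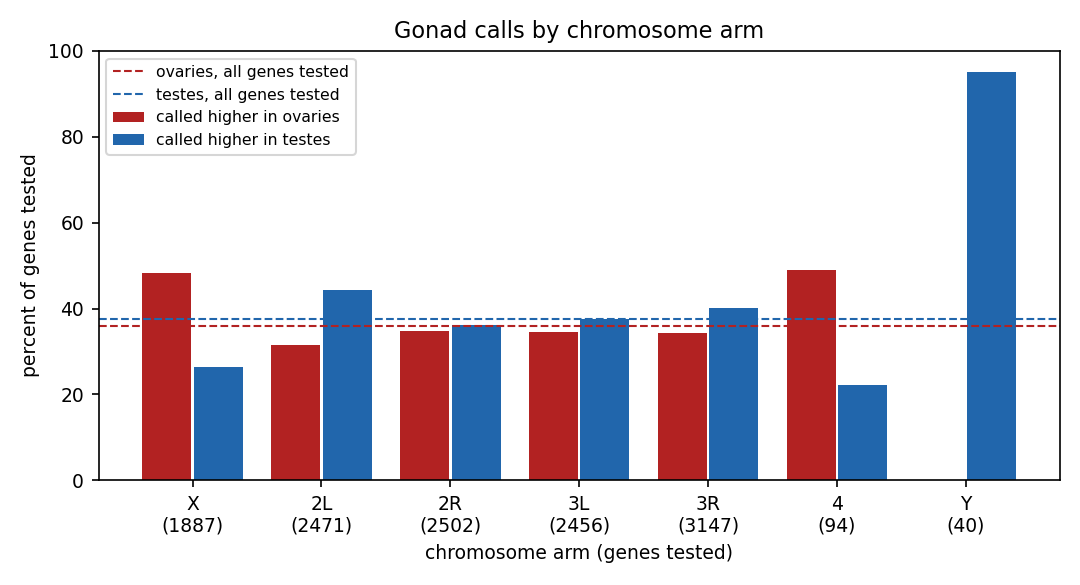
Percent of the genes tested on each chromosome arm that were called higher in ovaries (red) and higher in testes (blue), with the share over all genes tested as dashed lines (35.9% and 37.6%). The X and chromosome 4 lie above the line for ovaries and below that for testes, 2L does the reverse, and the Y holds 38 testis calls among 40 genes.

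The genes of each gonad also differed in kind. Ovary-higher genes had a median of 2176.5 exonic bases and testis-higher genes 1351, beside 1748 over all genes tested, in libraries whose replicates differed with gene length as given above. Coding genes with a single exon were 8.14% of the coding genes higher in ovaries, against 17.3% of those higher in testes and 11.5% of all coding genes tested. Non-coding RNA genes were 2.0% of ovary calls and 17.7% of testis calls, beside 9.41% of all genes tested, and of the 1181 tested, 90 (7.62%) were higher in ovaries and 837 (70.9%) higher in testes. Genes known only by a CG number were 27.4% of ovary calls and 43.7% of testis calls, beside 35.7% of all genes tested. The strand setting of the counting is not given in the sources used here. Genes wholly under others, on either strand, held no counts, so stretches shared by 2 genes appear not to be counted. Outside such stretches the strand of a read cannot be told from the counts. Partly overlapped genes were 47.3% of ovary calls and 26.7% of testis calls, beside 37.6% of all genes tested. The part of this overlap in the shares above was not tested.

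The same genes were then read in bodies, which are other libraries. Between female and male bodies 3070 genes (24.4%) were called higher in females and 3494 (27.7%) higher in males. Of the 4527 genes higher in ovaries, 2973 (65.7%) were called higher in female bodies and 10 higher in male bodies, and of the 4739 genes higher in testes, 9 were called higher in female bodies and 3346 (70.6%) higher in male bodies. Among genes not called between the gonads, 2.64% were higher in female bodies and 4.14% in male bodies. The labels do not say whether gonads were removed from the bodies, and the methods mention no such removal. Bodies may thus hold gonad RNA, so these shares are no independent support for the gonad calls. The part of gonad RNA in them was not tested. Vm26Aa stood at 7295 and 9541 CPM in female bodies, against 41.7 and 27.2 CPM in male bodies, and Mst87F, in the bodies whose replicate 1 held the testis genes given above, at 7.11 and 0.336 CPM in female bodies, against 521 and 311 CPM in male bodies. The vitelline membrane and chorion list summed to 25834 and 31795 CPM in female bodies, against 158 and 125 CPM in male bodies. In ovaries it summed to 39220 and 31886 CPM. Between heads, 3 genes were called higher in females (0.0238%) and 1 higher in males (0.00794%). Those 3 genes (Yp1, Yp2, Yp3) were all called higher in ovaries and that 1 (lncRNA:roX1) was called higher in testes. Against the head of the same sex, 2572 of the ovary-higher genes (56.8%) were higher in ovaries than in female heads and 395 (8.73%) were lower, beside 28.6% and 27.4% of all genes tested. Of the testis-higher genes, 3058 (64.5%) were higher in testes than in male heads and 993 (21.0%) were lower, beside 31.8% and 37% of all genes tested. Each of these comparisons uses the same gonad libraries that made the calls.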

How the data were processed

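RNA of ovaries and testes (2 libraries each) was measured by poly(A) RNA-seq with 150 bp paired stranded reads, beside 2 libraries each of bodies and heads of either sex. Per the labels and methods, the authors trimmed reads with cutadapt 1.15, mapped them with TopHat2 2.1.1 to dm6 and deposited 1 table of raw counts per gene. The counter and its strand setting are not given in the sources used here. The length listed for each gene is its whole span, introns included, and 3487 genes wholly under other genes have 0 counts. Every column matched a sample by name.

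Counts of the 12 adult libraries were fitted by quasi-likelihood (edgeR 4.0.16, R 4.3.3, functions glmQLFit and glmQLFTest) with 1 coefficient per group, after filterByExpr at a minimum count of 10 and scaling by TMM, and adjusted by Benjamini-Hochberg over all 12597 genes tested. Calls needed an adjusted p under 0.05 and at least 1 unit of log2 fold change, ovary over testis. The SE is the log2 fold change over the square root of F. CPM are TMM-scaled, and 3 counts (0.0445 to 0.0730 CPM in the gonads) served as each library's floor. Symbols were found for 17742 gene IDs, exon lengths and biotypes came from an Ensembl annotation, and 440 of 448 list entries matched the table.

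The comparison and the gene lists were chosen with earlier results of these data known. By rule, the named genes were the most abundant members of each list and those that go against it, per direction the 12 called genes with the largest change at 100 CPM or more, and the 10 called genes with the highest level at a log2 fold change of at least 3. Further list members, some of them at low levels, were named outside these rules. The low level of testis genes in ovaries, the genes alike in both gonads and the gene families of the closing section were chosen after the values were seen. The alternatives were DESeq2's size factors, upper-quartile scaling, DESeq2's Wald test (DESeq2 1.42.0), no filter, at least 10 counts in each gonad library, the 4 gonad libraries alone, the replicate number as a block, no minimum fold change and each gonad replicate left out in turn. The fit was tested on simulated data in which few genes changed between the gonads, as many up as down. In the real data most genes were called, so the simulation did not test the scaling. Promoter motifs were planned and not analysed here.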

Additional observations from a re-analysis of the deposited data

Results flagged for a closer look

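Of the 19 genes called in opposite directions between the gonads and between the bodies, 8 averaged at least 5 CPM in the higher gonad. The interaction term in edgeR's fit, the change between gonads (ovary over testis) minus that between bodies (female over male), is given as a description, since calls in opposite directions in the same libraries fix a difference of at least 2 in advance. The size of the difference in log2 fold change and its adjusted p in edgeR were 4.12 and 0.00317 for Mthfs, 3.75 and 0.00312 for CG9331, 3.74 and 0.00317 for CG7322, 2.76 and 0.0237 for Pu, 2.60 and 0.0162 for Fhos, 2.47 and 0.0300 for alpha-Est7, 2.37 and 0.0158 for CG18547, and -7.26 and 0.0141 for CG1368.

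The genes higher in ovaries and in male bodies were 7 of the 8, and the gonad calls of 4 of these, alpha-Est7, CG18547, Pu and Fhos, were lost with DESeq2's size factors, with upper-quartile scaling, with the 4 gonad libraries alone, with at least 10 counts in each gonad library and without ovary replicate 2. Fhos, a formin that organizes actin in muscle, had 35.5 and 58.7 CPM in ovaries, against 13.7 and 20.4 CPM in testes, and 207 and 321 CPM in female bodies, against 453 and 704 CPM in male bodies. Pu, which makes the first step of pteridine synthesis, had 8.33 and 5.24 CPM in ovaries, against 2.95 and 1.66 CPM in testes, and 46.7 and 28.0 CPM in female bodies, against 98.6 and 72.9 CPM in male bodies. For both genes the bodies lay above both gonads. CG1368 went the other way, with 0.637 and 0 CPM in ovaries, against 6.26 and 6.86 CPM in testes, and 32.8 and 44.4 CPM in female bodies, against 4.38 and 6.51 CPM in male bodies. The tissue in the bodies that carries these counts was not tested.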

How the results depend on the processing

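The number of genes called higher in ovaries moved with the scaling, the filter and ovary replicate 2. The 4527 genes of the fit with TMM became 2765 with DESeq2's size factors, 2782 with DESeq2's Wald test and 2263 with at least 10 counts in each of the 4 gonad libraries, where 8809 genes were tested. Leaving out each gonad replicate in turn gave 2797 to 4271 genes higher in ovaries and 4419 to 5365 higher in testes, 252 to 268 called members of the gonad lists (269 in all 12 libraries), and the lowest ovary count, 2797, came without ovary replicate 2. The other counts stayed within 1.5 times of the main ones, from 3216 to 5832 genes higher in testes and from 226 to 272 list members. A like count did not mean the same genes. With at least 10 counts in each gonad library, 2108 of the 3216 testis-higher genes were among the 4739. In that setting the median log2 fold change of the ovary-called genes still tested was 1.12, in place of 2.35. Genes higher in testes under DESeq2's factors included all 4739 of the TMM fit, and the 2765 ovary genes were all among the 4527. With DESeq2's factors the X held 22.8% of ovary-higher genes, in place of 20.1%, and 11.0% of testis-higher genes, in place of 10.5%.

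Of 214 genes named in the text, 22 lost their call with DESeq2's factors, 15 with upper-quartile scaling and 14 with the 4 gonad libraries alone. A call was gained by 13, 7 and 4 genes in these settings. With at least 10 counts in each gonad library, 21 lost their call without a turn in direction and 13 gained one. With at least 10 counts in each gonad library the direction turned for mip40 (-1.14), stil (-1.11), mael (-0.14) and mle (-0.11), and without ovary replicate 2 for Panx (-0.14). With the replicate block 4573 genes were higher in ovaries and 4810 higher in testes, and no named gene changed its call. The deviations of ovaries and testes of the same number correlated at 0.37, but the labels do not say what a number stands for and there are only 2 pairs, so the block was not taken as a pairing of the samples. Without a minimum fold change 4870 and 4885 genes were called. The floor of 3 counts a library limits levels near 0, and 2 libraries a group limit every error. The difference between replicates also moved with exon length (r across genes of 0.51 over 7272 genes in ovaries and 0.61 over 9311 genes in testes), and 3487 genes wholly under other genes could not be compared. Promoter motifs, which were planned, were not run.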

Other observations

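Gene families outside the lists of the report were counted after the values had been seen, so their counts are descriptions. Over all genes tested, 35.9% were called higher in ovaries and 37.6% higher in testes with TMM. With DESeq2's factors 2765 of 12597 were called higher in ovaries and 5832 higher in testes. The machinery for growth and replication lay on the ovary side. Of 88 cytosolic ribosomal protein genes tested, 82 were higher in ovaries and 6 higher in testes (median log2 fold change 3.13, and 2.14 with DESeq2's factors), and they took 16.5% and 9.22% of ovary counts, against 2.04% and 1.98% of testis counts. The 6 exceptions were RpL10Aa, RpL22-like, RpS19b, RpL37-2, RpS28-like and RpS28a. The ovary replicates differed in this share by more than 1.5 times, and most of these genes are short. Of 71 mitochondrial ribosomal protein genes, 62 were higher in ovaries with TMM and 39 with DESeq2's factors. All 6 MCM helicase genes and all 8 DNA polymerase genes tested were higher in ovaries. Nurse and follicle cells replicate their DNA many times, and the part of this in the calls was not tested. Mcm2 had 123 and 186 CPM in ovaries, against 3.70 and 3.66 CPM in testes, and PolA1 had 91.6 and 205 CPM in ovaries, against 3.23 and 6.65 CPM in testes. Of 10 histone chaperones and variants, 9 were higher in ovaries, among them BigH1, the embryonic linker histone, with 674 and 380 CPM in ovaries, against 54.6 and 33.6 CPM in testes. Of 40 translation initiation factors, 28 were higher in ovaries with TMM and 14 with DESeq2's factors, while 8 were higher in testes, including eIF4H2 and eIF3d2 beside the eIF4E copies.

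On the testis side, 8 of 14 dynein heavy and intermediate chain genes were higher in testes and 1, Dhc64C of the cytoplasmic motor, was higher in ovaries, a call lost with DESeq2's factors. Dic2 had 2.51 and 0.471 CPM in ovaries, against 257 and 195 CPM in testes. Serpins and odorant-binding proteins, both known from seminal fluid, gave 16 of 21 and 19 of 36 genes higher in testes, beside 37.6% of all genes tested. In each family 2 genes were higher in ovaries, and 3 serpin and 15 odorant-binding protein genes were not called. Spn38F had 20.1 and 4.42 CPM in ovaries, against 1791 and 1864 CPM in testes, in libraries with the accessory gland counts given in the report. Obp19c was an odorant-binding protein gene of the ovary, with 165 and 70.3 CPM in ovaries, against 0.387 and 0.129 CPM in testes. Of 1161 long non-coding RNA genes tested, 83 were higher in ovaries and 833 higher in testes, and as a class they took 0.175% and 0.106% of ovary counts, against 1.74% and 1.29% of testis counts.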
